A study of Mus musculus with 8 samples.

Results

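The lysosomal module examined here comprised 37 genes for the acid hydrolases, membrane proteins and proton pump of the lysosome, together with Tfeb, the gene of a transcription factor that controls many of them. They were taken by gene symbol, joined by Ensembl gene identifier across both deposited tables, and all 37 were found among the 31406 genes of the table that compares the pair of treatments. By role they were 11 cathepsins, 7 glycosidases, 7 proteins of lipid and protein turnover, 6 membrane proteins, 5 proton pump subunits and 1 regulator. The rule itself uses gene names and no measured value, although the module was chosen with earlier results of these data known. RNA-seq was done on primary striatal microglial cultures from wild-type C57/BL6 mouse pups 2 to 4 days old, kept for 15 days and then activated for 48 h with 0.01% LPS and 0.002% IFN-γ by volume. All libraries shared this activation, and the reagent list of the study names human IFN-γ. In 4 libraries the A2A receptor antagonist SCH 58261 was added alone at 200 nM (the A2AR antagonist group), and in the other 4 it was added with 200 nM of the A3 receptor agonist 2-Cl-IB-MECA (the dual group), each time at 24, 32 and 40 h of activation, so that RNA was taken 8 h after the last addition. The comparison therefore asked what the A3R agonist added in activated microglia whose A2AR was blocked.

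The groups follow the sample titles and the column names of the tables. The treatment field of the labels names 2-Cl-IB-MECA for the libraries whose titles list SCH 58261 alone, so the direction of every difference given here rests on the titles. The study used 4 pregnant animals, the share of each litter in each library is not stated, and no source says that the libraries of a group came from separate cultures. The p-values thus measure the spread between these libraries, which may be technical. The number of replicates given in the methods is not that of the titles and deposited columns, and n follows the titles and columns. The time field of the labels does not give the 48 h of activation that the methods state, and the times here follow the methods.

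Lysosomes break down proteins, glycans and lipids delivered by endocytosis, phagocytosis and autophagy, and their hydrolases need the acid lumen that the vacuolar H+-ATPase maintains. Microglia, the phagocytes of the brain, rely on them to digest debris and to process antigens. TFEB and related factors bind short E-box motifs in the promoters of many lysosomal genes, and loss of single hydrolases or lysosomal membrane proteins causes lysosomal storage diseases.

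Libraries of the A2AR antagonist group held 38427491 to 45878639 counts in all, and those of the dual group 32630602 to 45544451. Each library detected 26155 to 26809 genes with 1 count or more. The 37 lysosomal genes took 1.18% ± 0.0149 of all counts in the A2AR antagonist group and 1.16% ± 0.0142 in the dual group (SD, n = 4 each). The cultures held transcripts of several cell types. Summed over 10 microglial markers, levels were 588 to 661 FPKM (fragments per kilobase of gene and 1e+06 mapped fragments) in the A2AR antagonist group and 542 to 579 FPKM in the dual group, mostly from C1qa (mean 419.6 FPKM), whereas the homeostatic markers Tmem119 and P2ry12 had means of 3.18 and 0.715 FPKM. The sums did not overlap between the groups, but the 10 markers had a median log2 fold change of 0.016 with 5 above 0, and C1qa was the 1 marker that passed edgeR's test. The 7 astrocyte markers summed to 951 to 996 and 967 to 1033 FPKM, with Gfap at a mean of 389.8 FPKM, and the 6 fibroblast markers to 280.5 to 315 and 281 to 352 FPKM. Over the 8 libraries, the oligodendrocyte markers summed to 65.9 to 74.3 FPKM, those of mural cells to 61.9 to 71.8 FPKM, those of endothelial cells (3 of 4, Cldn5 not analysed here) to 7.40 to 9.95 FPKM and those of neurons to 2.03 to 2.78 FPKM. Lysosomal genes are used by all of these cells, so their transcripts could not be assigned to microglia, and in bulk RNA fewer cells of a type cannot be told apart from less RNA per cell.

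**Figure D1:**
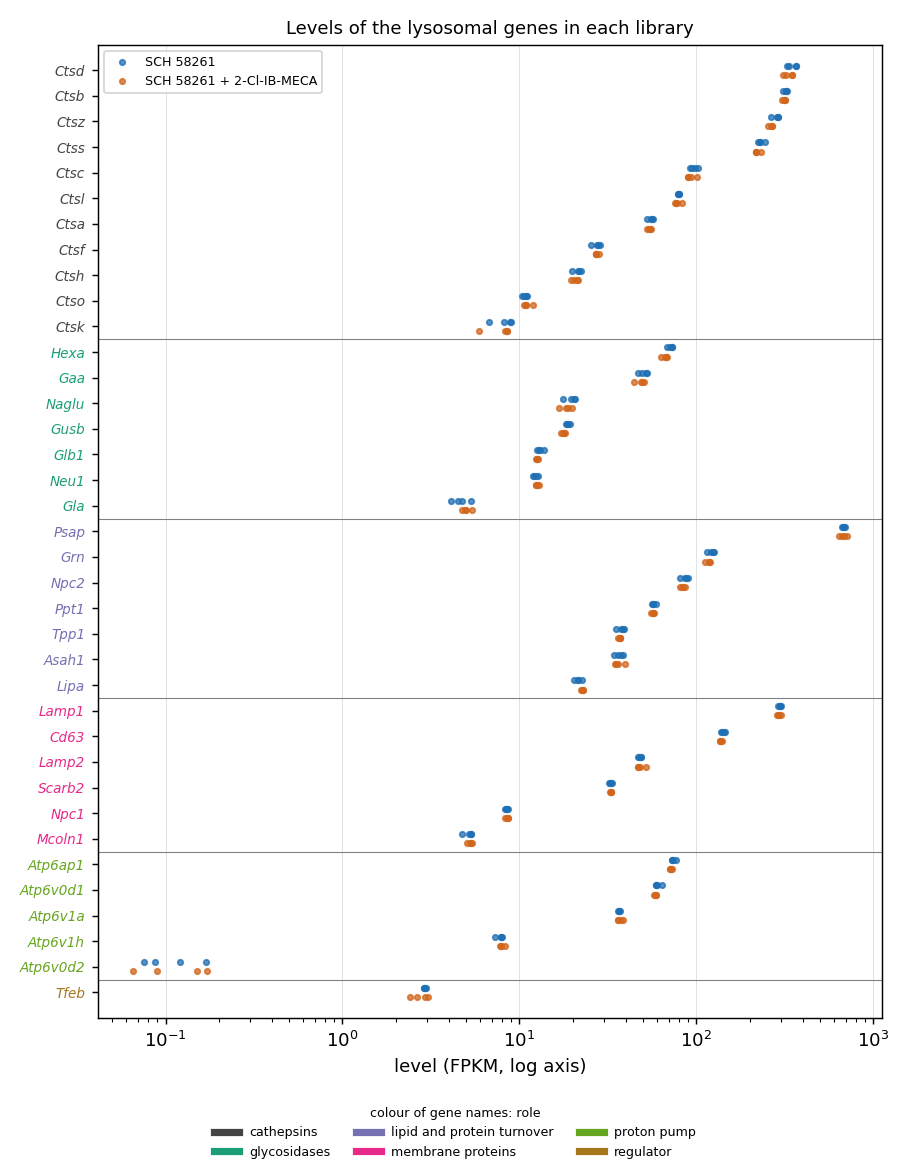
Level of each of the 37 lysosomal genes in the 8 libraries, in FPKM on a log axis, with 1 point per library, blue for SCH 58261 alone and orange for SCH 58261 with 2-Cl-IB-MECA. The genes are ordered by mean level within each role, and the points of the groups lie close together for every gene while the genes span from 0.117 FPKM for Atp6v0d2 to 678 FPKM for Psap.

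Most of the module was expressed at a high level. On the FPKM scale, which allows levels to be compared between genes, 35 of the 37 genes lay above the median of all genes tested (3.85 FPKM), the median of the module was 37.1 FPKM, and 8 genes reached 100 FPKM or more. Psap, the precursor of the saposins that activate sphingolipid hydrolases, stood highest at 640 to 707 FPKM over the 8 libraries. The aspartic protease gene Ctsd followed at 311 to 366 FPKM and overlapped with the cysteine protease gene Ctsb (306 to 326 FPKM), while Lamp1, for the main glycoprotein of the lysosomal membrane, overlapped with Ctsz. Below these, Ctss, Cd63, Grn, Ctsc and Npc2 followed in that order without overlap between neighbours. Of the 36 pairs of neighbours in the full order, 18 overlapped in range over the libraries. Ranges ignore that both genes of a pair were measured in the same libraries. Ctsd, for example, lay above Ctsb in every library, whereas Tpp1 and Atp6v1a changed order between libraries. Only Tfeb (2.41 to 3.06 FPKM) and Atp6v0d2 (0.0659 to 0.172 FPKM) had means under the median of all genes.

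**Figure D2:**
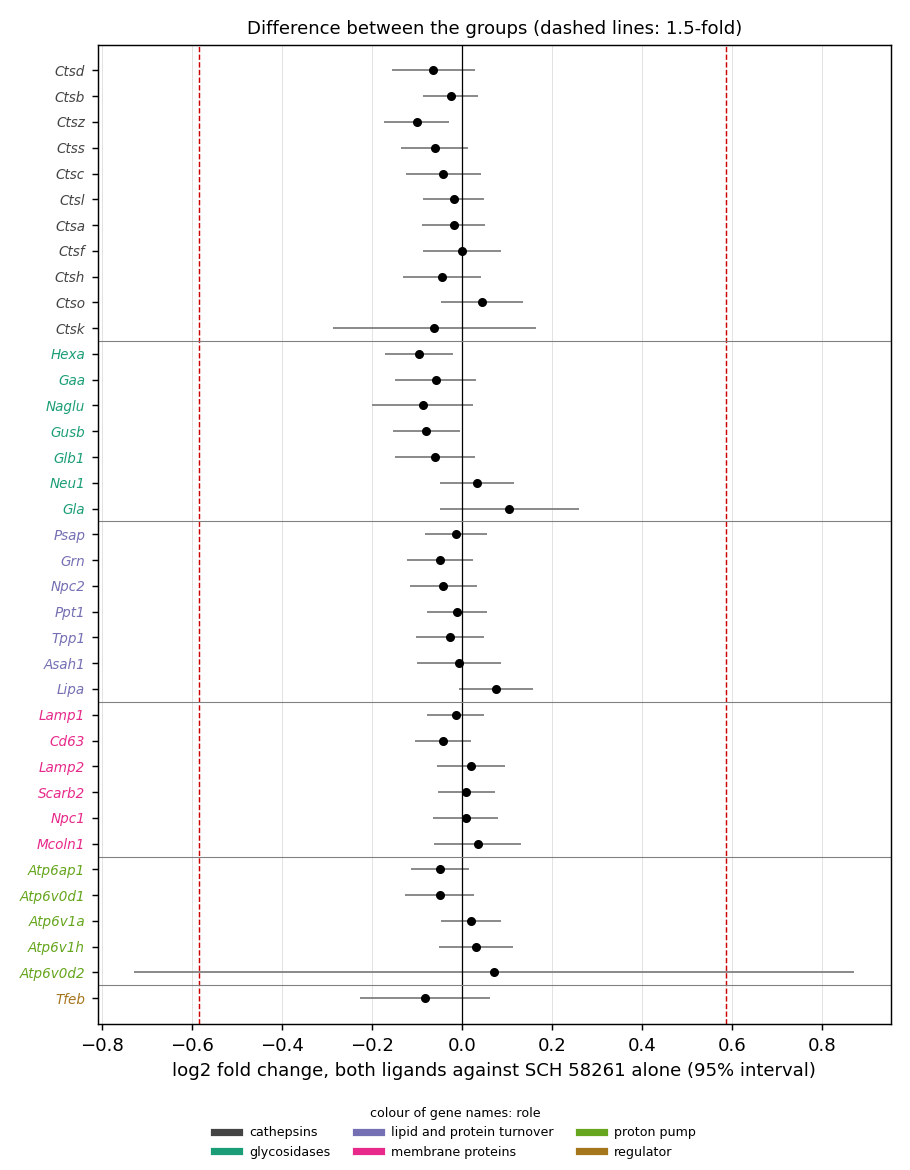
Difference between the groups for each of the 37 lysosomal genes, as the log2 fold change of the dual group against the A2AR antagonist group, with its 95% interval from the edgeR fit. The dashed lines mark 1.5-fold in each direction, and the intervals of all genes but Atp6v0d2 lie between them.

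Adding the A3R agonist was followed by no lysosomal transcript passing the test. All 37 genes passed the filter on low counts, and 0 of 37 had an adjusted p under 0.05 in edgeR's quasi-likelihood test with Benjamini-Hochberg adjustment over 18756 genes, against 0.208% of all genes tested (39 genes, 0.048% higher and 0.16% lower in the dual group). At an unadjusted p under 0.05 there were 3 of them, Ctsz, Hexa and Gusb, all lower in the dual group, which is 8.11% of the module against 12.8% of all genes in either direction, 6.81% lower and 5.98% higher. DESeq2 called 0 of the 33 lysosomal genes for which it gave an adjusted p, against 4.7% of all genes it adjusted (3.36% lower). It gave none for Ctsk, Gla, Atp6v0d2 and Tfeb. When 1 library was left out, the module still had 0 genes called. All genes called at the adjusted threshold went from 39 to between 0 (without A2AR antagonist library 4 or dual library 3) and 172 (without A2AR antagonist library 1). At an unadjusted p under 0.05, the module had 5 without A2AR antagonist library 1 or 3 or dual library 4. The share of all genes at that unadjusted threshold in these fits is not given here, so these counts have no background. The libraries of the groups did not overlap for 3 genes, Hexa, Gusb and Atp6ap1, all lower in the dual group, against 4.06% of all genes lower, 3.36% higher and 7.42% in either direction.

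The differences were small, and for most genes the intervals, which cover only the spread between these libraries, were narrow. The log2 fold changes of the 37 genes lay between -0.10 for Ctsz and 0.10 for Gla. The 95% interval stayed within 1.5-fold for 36 of the 37 genes, with Atp6v0d2 as the exception, against 76.8% of all genes tested. It stayed within 1.2-fold for 35 of the 37, against 55.4% of all genes, and within 1.1-fold for 25, against 22.4%. All genes tested had a median of 3.85 FPKM against 37.1 FPKM for the module, and intervals were not compared at like levels. Fitted values were below 0 for 25 genes and above 0 for 12, with a median log2 fold change of -0.025. Over all genes tested the median was 0.0038 with 48.5% below 0. The 9998 genes at or above the count level of Ctsk, the lowest lysosomal gene by counts apart from Atp6v0d2, had a median of -0.0053 with 53.3% below 0. Their median level, 10.4 FPKM, was below that of the module, so they were not matched to it in level. By role, the median was -0.04 for the cathepsins (9 of 11 below 0), -0.06 for the glycosidases (5 of 7), -0.014 for lipid and protein turnover (6 of 7), 0.0085 for the membrane proteins (2 of 6) and 0.020 for the proton pump (2 of 5). No p was computed over these groups.

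**Figure D3:**
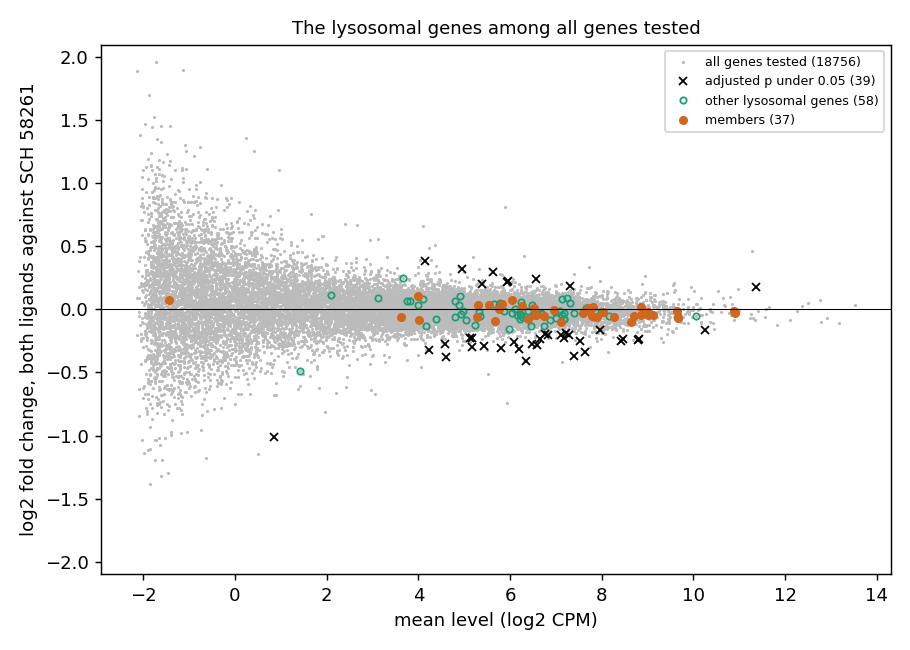
Log2 fold change of the dual group against the A2AR antagonist group plotted against mean level in log2 CPM (counts per 1e+06 counts) for the 18756 genes tested, with the 37 lysosomal genes in orange. The lysosomal genes lie close to 0 and, Atp6v0d2 apart, in the middle and upper range of levels, where the scatter of all genes is narrow.

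Among the cathepsins, Ctsz, an exopeptidase of the papain family, gave the smallest p of the module. Its level in counts per 1e+06 counts, scaled by the trimmed mean of M-values (CPM, used below for levels within a gene), was 386, 420.4, 419 and 416 in the A2AR antagonist libraries 1 to 4 and 382, 389.9, 388 and 371 in the dual libraries 1 to 4. The dual libraries lay below 3 of the A2AR antagonist libraries but overlapped with library 1, which stood apart from the rest of its group. The means were 410.4 ± 16.1 and 383 ± 8.69 CPM (SD, n = 4 each), a log2 fold change of -0.10 (SE 0.03, 95% interval -0.17 to -0.03) with an adjusted p of 0.201 in edgeR and 0.0553 in DESeq2, so that neither test passed. The gene lies on chr2 at 174427493 to 174439039 (mm10, minus strand).

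Ctsd, the lysosomal aspartic protease with the highest level among the cathepsins, had 773, 865, 789 and 862 CPM in the A2AR antagonist libraries and 827, 821, 761 and 737 CPM in the dual libraries. The groups overlapped, and the lowest value of the 8 was that of dual library 4. Its means of 822 ± 48.5 and 787 ± 44.4 CPM (SD, n = 4 each) gave a log2 fold change of -0.06 (SE 0.04, 95% interval -0.16 to 0.03, edgeR adjusted p 0.580). When 1 library was left out, it lay between -0.034 (without dual library 4) and -0.094 (without A2AR antagonist library 1), and was -0.039 without A2AR antagonist library 2 and -0.041 without A2AR antagonist library 4. Ctsd (chr7, 142375911 to 142388038, minus strand) shares 34.4% of its exonic bases with the gene model Gm49369 on the same strand in GENCODE M21, so its count is uncertain.

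Ctsk, the collagen-degrading cathepsin best known from osteoclasts, was the lowest of the cathepsins at a mean of 8.0 FPKM. It had 13.7, 12.4, 13.5 and 10.2 CPM in the A2AR antagonist libraries and 13.0, 9.04, 13.0 and 12.6 CPM in the dual libraries. Each group held 1 library lower than its other three, and the groups overlapped. The log2 fold change was -0.06 (SE 0.11, 95% interval -0.29 to 0.16, edgeR adjusted p 0.867), and without dual library 2 its sign turned, to 0.048. Of the 4 other osteoclast markers, Acp5, the tartrate-resistant acid phosphatase, had a mean of 4.25 FPKM, whereas Calcr, Ocstamp and Dcstamp had means of 0.0762, 0.0181 and 0.0203 FPKM. Summed over the 5 markers, Ctsk included, levels were 10.7 to 13.6 FPKM in the A2AR antagonist group and 10.4 to 13.5 FPKM in the dual group.

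The remaining 8 cathepsins all overlapped between the groups. Ctsb, the most abundant cysteine cathepsin, ranged from 1889 to 1985 CPM in the A2AR antagonist group and from 1867 to 1931 CPM in the dual group (log2 fold change -0.03). Ctss, which trims the invariant chain of MHC class II, ranged from 306 to 333 and from 295 to 318 CPM (-0.06), and Ctsc, the activator of granule serine proteases, from 542 to 595 and from 527 to 589 CPM (-0.04). Ctsl had a fitted log2 fold change of -0.018, Ctsa, the protective protein of β-galactosidase and neuraminidase, of -0.019, and Ctsh, an aminopeptidase, of -0.04. Ctso was the cathepsin furthest above 0, at 0.05, with 53.5 to 57.0 and 54.6 to 61.6 CPM, and Ctsf stood at 0.0006. Adjusted p ranged from 0.201 for Ctsz to 0.997 for Ctsf over all 11 cathepsins. Ctsl shares 26.9% of its exonic bases with the antisense gene Gm47123, Ctsb 12.8% with Fdft1 and Ctsa 10.5% with Pltp, all on the opposite strand, and since strand use in counting is not stated, reads of these pairs may not be separated.

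Of the glycosidases, Hexa and Gusb were the genes whose libraries did not overlap between the groups. Hexa, the α subunit of β-hexosaminidase that degrades GM2 ganglioside, had 137.6, 146.3, 142.4 and 145.6 CPM in the A2AR antagonist libraries and 136.6, 134.2, 137.5 and 126.8 CPM in the dual libraries. The gap was narrow, since A2AR antagonist library 1 lay just above dual library 3. The means were 143 ± 3.96 and 134 ± 4.86 CPM (SD, n = 4 each), with a log2 fold change of -0.10 (SE 0.04, 95% interval -0.17 to -0.02, edgeR adjusted p 0.259). Hexa (chr9, 59539540 to 59565109, plus strand) shares 12.8% of its exonic bases with Tmem202 on the opposite strand.

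Gusb, the β-glucuronidase of glycosaminoglycan breakdown, had 86.8, 84.4, 84.4 and 88.4 CPM in the A2AR antagonist libraries and 79.2, 83.7, 81.1 and 81.5 CPM in the dual libraries. All dual libraries were lower, and the closest values of the groups were 83.7 and 84.4 CPM. The means of 86.0 ± 1.97 and 81.4 ± 1.85 CPM (SD, n = 4 each) gave a log2 fold change of -0.08 (SE 0.04, 95% interval -0.15 to -0.0049, edgeR adjusted p 0.352). Gusb lies on chr5 at 129989011 to 130003049 on the minus strand.

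Gla, the α-galactosidase A that clears globotriaosylceramide, had the highest fitted value of the module. Its libraries held 14.8, 13.5, 17.5 and 15.5 CPM under SCH 58261 alone and 17.7, 16.5, 16.3 and 15.5 CPM with both ligands. The groups overlapped through A2AR antagonist library 3, at 17.5 CPM. The means were 15.3 ± 1.68 and 16.5 ± 0.92 CPM (SD, n = 4 each), with a log2 fold change of 0.10 (SE 0.07, 95% interval -0.05 to 0.26, edgeR adjusted p 0.592). The value was 0.047 without A2AR antagonist library 2, 0.070 without dual library 1 and 0.17 without A2AR antagonist library 3.

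The other glycosidase genes also overlapped between the groups. Naglu, which removes N-acetylglucosamine from heparan sulfate, ranged from 47.6 to 55.1 CPM in the A2AR antagonist group and from 45.0 to 53.1 CPM in the dual group (log2 fold change -0.09, 95% interval -0.20 to 0.02). Gaa, the acid α-glucosidase of glycogen, ranged from 227 to 253 and from 216 to 245 CPM (-0.06), and Glb1, the β-galactosidase of GM1 ganglioside, from 37.9 to 41.9 and from 37.5 to 38.7 CPM (-0.06). The sialidase gene Neu1 ranged from 45.1 to 47.9 and from 46.6 to 48.3 CPM (0.03). Adjusted p of the 7 glycosidases ranged from 0.259 to 0.786.

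The 7 genes of lipid and protein turnover gave adjusted p of 0.438 or more. Psap had 1849, 1892, 1873 and 1922 CPM in the A2AR antagonist libraries and 1955, 1902, 1835 and 1773 CPM in the dual libraries. Both the highest and the lowest of the 8 values were in the dual group. The means of 1884 ± 30.6 and 1866 ± 79.3 CPM (SD, n = 4 each) gave a log2 fold change of -0.014 (SE 0.03, 95% interval -0.08 to 0.06, edgeR adjusted p 0.909), and its sign turned without dual library 4, to 0.0099.

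Lipa, the acid lipase that hydrolyses cholesteryl esters and triglycerides, was the only one of these above 0, at 0.07 (95% interval -0.01 to 0.16), with 61.1 to 67.5 CPM in the A2AR antagonist group and 66.7 to 68.8 CPM in the dual group. Grn, the gene of progranulin, ranged from 401 to 439.8 and from 393 to 420.5 CPM (-0.05), and Npc2, the soluble cholesterol carrier, from 445 to 491 and from 442 to 476 CPM (-0.04). The tripeptidyl peptidase gene Tpp1 had a fitted value of -0.03, the palmitoyl thioesterase gene Ppt1 of -0.011, and the acid ceramidase gene Asah1 of -0.006.

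The membrane proteins were the group closest to 0, from -0.04 for the tetraspanin gene Cd63 to 0.03 for Mcoln1, the cation channel TRPML1. Lamp1 had 779, 794, 809 and 803 CPM in the A2AR antagonist libraries and 810.2, 782, 769 and 793 CPM in the dual libraries. The groups overlapped over most of their range. The means of 796 ± 13.0 and 788 ± 17.5 CPM (SD, n = 4 each) gave a log2 fold change of -0.015 (SE 0.03, 95% interval -0.08 to 0.05, edgeR adjusted p 0.890). Lamp1 shares 9.31% of its exonic bases with Grtp1 on the opposite strand. Of the 31-base stretches in Cd63 transcripts, 13.4% also occur in the pseudogene Cd63-ps, so the Cd63 count is uncertain.

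Lamp2, the receptor of chaperone-mediated autophagy, ranged from 449 to 469.6 CPM in the A2AR antagonist group and from 449.6 to 500.4 CPM in the dual group (log2 fold change 0.019). Scarb2, which carries β-glucocerebrosidase to the lysosome, ranged from 204 to 211 and from 206 to 209.7 CPM (0.009), and Npc1, the membrane exporter of cholesterol, had means of 91.6 and 92.1 CPM (0.008). The adjusted p of the 6 membrane protein genes ranged from 0.594 to 0.954.

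Of the vacuolar H+-ATPase genes, Atp6ap1, an accessory subunit, had 224, 225, 223 and 232 CPM in the A2AR antagonist libraries and 222, 219.9, 215 and 216 CPM in the dual libraries. All dual libraries lay lower, although A2AR antagonist library 3 and dual library 1 were close. The means of 226 ± 4.39 and 218 ± 3.21 CPM (SD, n = 4 each) gave a log2 fold change of -0.05 (SE 0.03, 95% interval -0.11 to 0.02, edgeR adjusted p 0.540). The membrane sector subunit gene Atp6v0d1 ranged from 106 to 116 and from 104 to 106 CPM (-0.05). The catalytic subunit gene Atp6v1a (0.020) and the regulatory subunit gene Atp6v1h (0.03) were fitted just above 0.

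Atp6v0d2, the d subunit isoform that is known from osteoclasts and macrophages, was near the limit of detection. Its raw counts were 8, 21, 10 and 15 in the A2AR antagonist libraries and 8, 18, 19 and 8 in the dual libraries. The groups covered nearly the same range of counts. With 0.310 ± 0.114 and 0.328 ± 0.138 CPM (SD, n = 4 each), the log2 fold change was 0.07 (SE 0.38, 95% interval -0.73 to 0.87, edgeR adjusted p 0.965), and a difference within that interval was not detectable at this depth. Leaving out 1 library moved the value between -0.14 and 0.33, and it was below 0 without A2AR antagonist library 1 or 3 and without dual library 2 or 3.

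Tfeb, for the regulator itself, had 16.6, 16.9, 16.5 and 16.7 CPM in the A2AR antagonist libraries and 16.6, 15.1, 17.4 and 13.8 CPM in the dual libraries. The first group was tight, with a coefficient of variation of 0.940%, and lay inside the range of the second, where it was 10.3%. The means of 16.7 ± 0.157 and 15.7 ± 1.62 CPM (SD, n = 4 each) gave a log2 fold change of -0.08 (SE 0.07, 95% interval -0.23 to 0.06, edgeR adjusted p 0.664). It was -0.022 without dual library 4 and -0.14 without dual library 3.

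The promoters were searched for the motif of this factor, a search that used no expression values. Such motifs are known from many lysosomal genes, so a share above that of all genes is not independent of the choice of the module. RefSeq windows of GRCm38.p6 from 250 bases before to 50 after the transcript start matched 31 of the 37 genes, not Npc1, Atp6v0d2, Asah1, Ctsb, Ctsh and Atp6v1h. The E-box core CACGTG, the same on both strands, was in 12 of the 31 genes against 8.09% of all genes with a window. The longer TCACGTGA, which contains the core and is also the same on both strands, was in 6 of 31 against 1.12% of all genes, and the same letters preceded by G and followed by C were in 0 of 31 against 0.37%. The 6 genes with TCACGTGA are shown with 10 bases on each side, 5′ to 3′ on the strand of the gene, with the motif in capitals, since they include genes of 4 of the roles above.
Atp6v0d1, chr8:105566051-105566078, minus strand: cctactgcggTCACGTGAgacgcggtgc
Atp6v1a, chr16:44139374-44139401, minus strand: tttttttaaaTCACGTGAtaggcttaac
Ctsa, chr2:164833750-164833777, plus strand: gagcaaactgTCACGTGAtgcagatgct
Ctsa, second match, chr2:164833767-164833794, plus strand: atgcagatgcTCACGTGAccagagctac
Ctsd, chr7:142387909-142387936, minus strand: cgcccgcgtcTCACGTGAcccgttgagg
Gla, chr X:134601216-134601243, minus strand: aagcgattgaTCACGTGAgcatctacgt
Gla, second match, chr X:134601183-134601210, minus strand: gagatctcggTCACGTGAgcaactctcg
Mcoln1, chr8:3500463-3500490, plus strand: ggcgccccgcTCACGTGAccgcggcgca

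Counted from the RefSeq transcript start, the first base of the motif was at -4 in Atp6v0d1, -132 in Atp6v1a, -99 in Ctsd and -46 in Mcoln1, at -13 and 5 in Ctsa, and at -228 and -195 in Gla. By the gene bounds in the deposited table, the windows of Ctsa, Ctsd, Atp6v1a and Mcoln1 lie within the gene and those of Atp6v0d1 and Gla before it. The 6 genes with the motif had a median log2 fold change of 0.0004 (3 below 0), and the 25 without it a median of -0.04 (19 below 0), which is given as a description with no test. A match says only that these letters occur in the window.

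**Figure D4:**
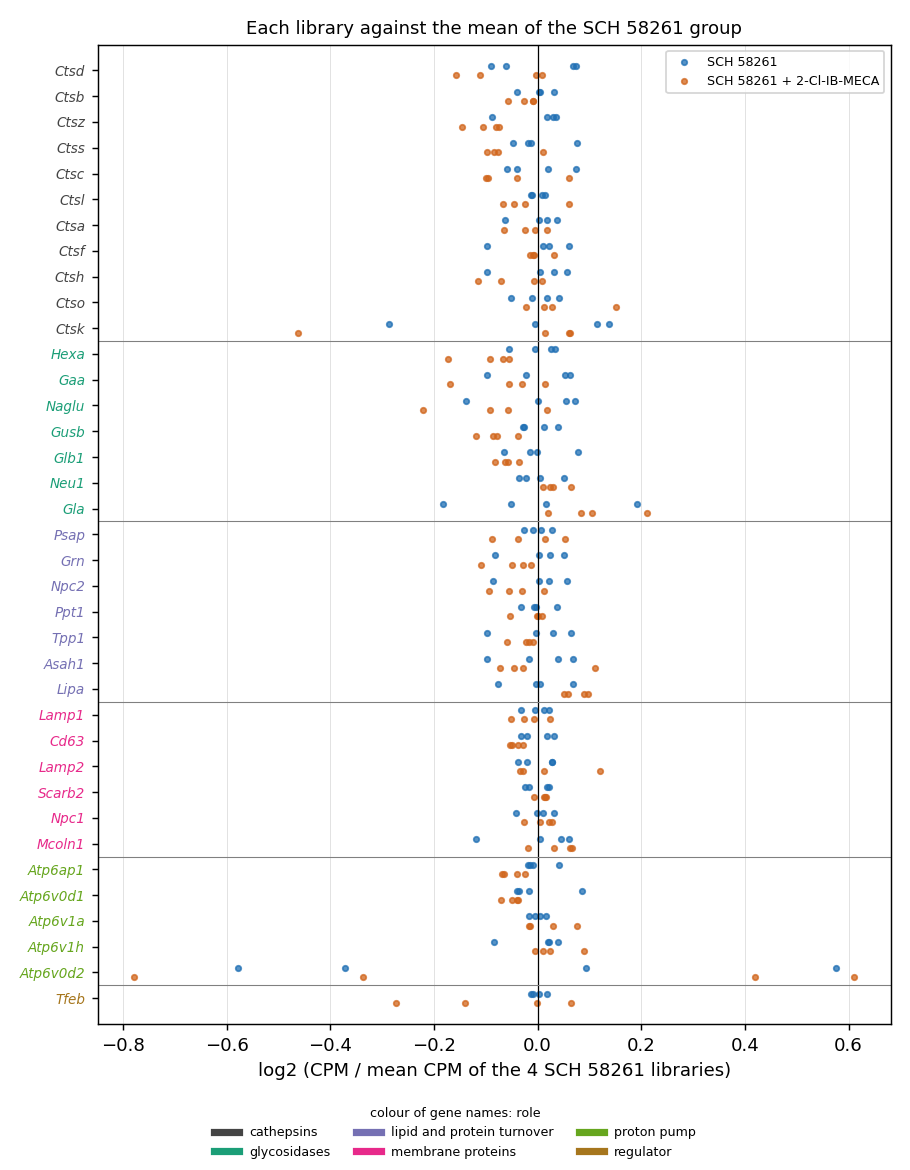
Level of each of the 37 lysosomal genes in the 8 libraries, as log2 of CPM over the mean CPM of the 4 libraries with SCH 58261 alone, with blue points for that group and orange points for SCH 58261 with 2-Cl-IB-MECA. The points of the groups overlap for 34 genes and lie apart for Hexa, Gusb and Atp6ap1, and Atp6v0d2 shows the widest scatter.

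The spread within groups was of the size of the differences between them. For the 36 genes at 1 CPM or more, the coefficient of variation had a median of 3.78% in the A2AR antagonist group and 2.90% in the dual group, with the highest value in both for Ctsk (12.8% and 16.1%). The 9998 genes at or above the count level of Ctsk, the lowest lysosomal gene by counts apart from Atp6v0d2, had medians of 3.69% and 4.50%. Much of this spread was shared by a pair of libraries. A2AR antagonist library 1 was the lowest of its group for 18 of the 37 genes and dual library 4 for 17, and 14 genes were in both lists (77.8% and 82.4% of each), among them Ctsb, Ctsd, Ctsz, Hexa, Gaa, Grn, Npc2 and Psap. Dual library 4 was at the same time the highest of its group for 9 genes, Asah1, Atp6v1a, Atp6v1h, Ctsc, Ctso, Ctss, Glb1, Lamp2 and Lipa.

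**Figure D5:**
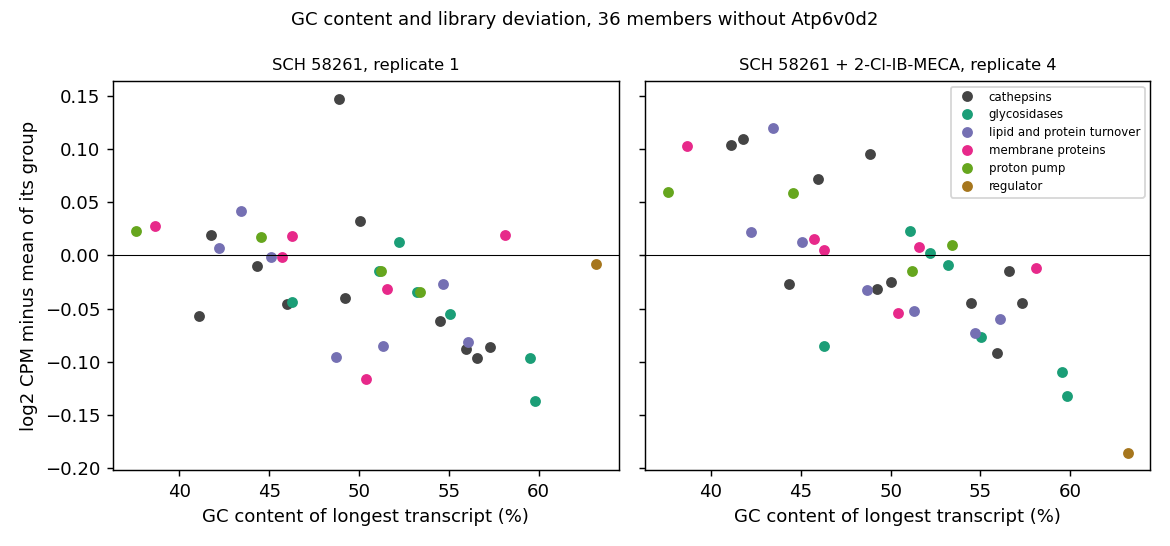
Deviation of each of 36 lysosomal genes from the mean of its group, in log2 CPM, plotted against the GC content of its longest transcript in percent, for A2AR antagonist library 1 and dual library 4. Genes with high GC content lie lower in both libraries, and Atp6v0d2, with at most 21 counts, is not drawn.

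GC content moved with this pattern. It ranged from 37.6% for Atp6v1h to 63.2% for Tfeb. The genes lowest in dual library 4 had a median of 55.1% and those highest in it 42.2%. Across the 37 genes, Spearman's rho between GC content and the deviation from the group mean was -0.631 in dual library 4 and -0.429 in A2AR antagonist library 1, and 0.561 in dual library 1 and 0.483 in A2AR antagonist library 2. Across 18738 genes of the same libraries the 4 values were -0.425, -0.227, 0.255 and 0.214. The log2 fold change itself had a rho with GC content of -0.625 across the lysosomal genes and -0.175 across all genes. These are descriptions across genes, which share libraries and are not independent. With a GC trend per library taken out of the fit, Ctsz and Hexa both had a log2 fold change of -0.08 (edgeR adjusted p 0.164 for each), 0 of 37 genes were called against 296 of all genes, and the sign of Psap turned to 0.0060. In that fit the module had a median of -0.026 with 27 genes below 0, against -0.025 and 25 in the main fit. At an unadjusted p under 0.05 it had 4 (Ctsz, Ctss, Ctsc and Hexa) against 3, and the share of all genes there is not given here.

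The rest of the lysosomal system was read from 58 other genes of the pump, hydrolases, inhibitors, membrane proteins, sorting receptors and regulators. None of the 58 passed edgeR's test, and at an unadjusted p under 0.05 there were 12, of which 8 were lower and 4 higher in the dual group. That is 20.7% of them, against 12.8% of all genes tested and 17.1% of the genes at or above the count level of Ctsk. Their median log2 fold change was -0.028, with 38 of 58 below 0. DESeq2 called 3 of the 50 it adjusted, Idua, Atp6v1f and Cstb, all lower, against 4.7% of all genes it adjusted. Idua, the α-L-iduronidase, had 66.8 ± 2.93 and 59.97 ± 1.29 CPM (SD, n = 4 each), a log2 fold change of -0.16 (SE 0.04) with an adjusted p of 0.101 in edgeR and 0.0126 in DESeq2. The pump subunit gene Atp6v1f had a log2 fold change of -0.13 (adjusted p 0.143 in edgeR and 0.0272 in DESeq2), and the cathepsin inhibitor gene Cstb, named here because DESeq2 called it, one of -0.13 (0.146 and 0.0291).

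Cst7, the gene of the inhibitor cystatin F, had the third smallest p among those lower, at 3.05 ± 0.219 and 2.19 ± 0.374 CPM (SD, n = 4 each) and a log2 fold change of -0.49 (SE 0.14, edgeR adjusted p 0.145). The genes with the smallest p among those higher were Atp6v0c, the proteolipid ring subunit (0.25, SE 0.07, edgeR adjusted p 0.140), Sort1, a sorting receptor (0.09, SE 0.03, 0.220), and Slc17a5, the sialic acid exporter (0.11, SE 0.05, 0.331). Among the pump genes of this list, only Atp6v0c and Atp6v0a2 (0.047) were above 0, and all the others were below it. Atp6v0b (-0.09) and Atp6v1b2 (-0.08) were also lower at an unadjusted p under 0.05 in edgeR. In the module, 2 of the 5 pump genes were below 0. Atp6v1f shares 18.4% of its 31-base exonic words with AC169506.3 and Atp6v0c 11.9% with the pseudogene Atp6v0c-ps2, so that both counts are uncertain. Among the 10 microglial markers, C1qa was called by edgeR with a log2 fold change of -0.24 (adjusted p 0.0240). In all, 3 of the 10 were at an unadjusted p under 0.05. The median of the list was 0.016 with 5 markers above 0, among them Csf1r (0.11) and P2ry12 (0.28, with 48 to 111 counts). Aif1 was below 0, at -0.21 (edgeR adjusted p 0.110). Csf1r, P2ry12 and Aif1 did not pass. The 7 astrocyte markers had a median log2 fold change of 0.031 with 0 called and 3 at an unadjusted p under 0.05. The 6 fibroblast markers had a median log2 fold change of 0.11 with 0 called and 3 at an unadjusted p under 0.05. The part of such differences in the lysosomal values was not tested.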

How the data were processed

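The authors aligned the reads with HISAT2 2.0.5 to mm10, counted them per gene with featureCounts 1.5.0-p3 (per the labels and methods), and deposited raw counts together with FPKM values per gene and library. The counts were tested as deposited with edgeR 4.0.16 (R 4.3.3): filterByExpr with a minimum count of 10, TMM scaling, glmQLFit and glmQLFTest on the 8 libraries without covariates, and Benjamini-Hochberg adjustment over 18756 genes, called at an adjusted p under 0.05. SE and 95% intervals came from the F statistic with 18.1 degrees of freedom. The common biological coefficient of variation was 5.28%. Levels within a gene are TMM-scaled CPM, and levels between genes are the deposited FPKM. Antagonist counts differed in 0 values between the tables. The 12 pairs of libraries within groups all differed beyond sampling noise (chi-square per degree of freedom 3.80 to 9.43). Not used were 9 per-sample columns of other libraries, and the columns of the authors' own fold changes and p-values for their comparisons. Gene overlap, GC content and 31-base words came from GENCODE M21, where 97.4% of matched identifiers had the same coordinates. The script was tested on simulated counts. The lists, like the module, were chosen with earlier results of these data known. Values by library are given for every lysosomal gene at an unadjusted p under 0.05, for the gene of highest level in each role, for the 3 largest log2 fold changes, and for Tfeb, Ctsk and Atp6v0d2. Outside the module, genes past the adjusted threshold are named, otherwise the 3 smallest p in each direction. Some pump genes are also named for their direction. Alternatives were RLE scaling, no filter, DESeq2 1.42.0, a replicate block, leaving out each library in turn, an unadjusted threshold and, chosen after seeing the data, GC-corrected offsets.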

Additional observations from a re-analysis of the deposited data

Results flagged for a closer look

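In each group of 4 libraries, the highest or lowest value was compared with the others by the ratio of its gap to the range of the group, set against Dixon's 95% critical value. Of the 74 groups of the 37 genes, 6 held such a library. Chance gives about 1 in 20 for independent groups, but these groups share the same libraries. The share over all genes is not given here, so no excess can be read from this count. Ctsz in A2AR antagonist library 1 was at 386 CPM while the other three libraries held 416 to 420.4 CPM. Atp6ap1 in A2AR antagonist library 4 was at 232 CPM, above 223 to 225 CPM in the rest. Atp6v1h in the same library was at 71.9 CPM, below 77.3 to 78.3 CPM. In dual library 3, Ctsf was at 55.6 CPM, above 53.8 to 54.1 CPM, and Ppt1 at 204 CPM, below 212 to 213 CPM. Ctsk in dual library 2 was at 9.04 CPM, below 12.6 to 13.0 CPM.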

How the results depend on the processing

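No lysosomal gene of the module was called in any of the 13 other fits, where the lowest adjusted p was 0.0553 (Ctsz, DESeq2), and a threshold on unadjusted p gave 3. At an unadjusted p under 0.05 there were 2 to 5 when 1 library was left out: 5 without antagonist replicate 1 (Ctsz, Hexa, Gaa, Naglu and Grn), 5 without antagonist replicate 3 (Ctsz, Hexa, Gusb, Gla and Lipa) and 5 without dual replicate 4 (Ctsz, Ctss, Ctsc, Hexa and Gusb). In the main fit, 12.8% of all genes were at that threshold, and their share in the fits without 1 library is not given here. The median of the module stayed between -0.037 and -0.015, with 24 to 27 genes below 0. Signs turned for Atp6v0d2 (-0.14 to 0.33 when 1 library was left out), for Ctsk (-0.15 to 0.048) and for Psap (-0.037 to 0.0099, and 0.0060 with GC-corrected offsets). No sign turned for the other 8 genes with values by library, but leaving out 1 library moved Lamp1 (-0.028 to -0.0056), Gla (0.047 to 0.17), Tfeb (-0.14 to -0.022) and Ctsd (-0.094 to -0.034). Among the 58 other lysosomal genes, 1 was called without the filter and 1 with GC-corrected offsets (Idua in both), and 3 with DESeq2. All genes called numbered 366 without the filter, 417 with DESeq2, 296 with GC-corrected offsets and 0 to 172 when 1 library was left out (172 without antagonist replicate 1, 5 without replicate 2, 6 without replicate 3, 0 without replicate 4, and 0 without dual replicate 3), against 39. The cause was not tested. No pairing by replicate number was seen, since deviations of same-numbered libraries correlated at -0.214, 0.0191, -0.132 and -0.304 over 5000 genes. Those of unlike-numbered libraries correlated at -0.2975 to 0.364. The highest were antagonist replicate 4 with dual replicate 2 (0.364) and antagonist replicate 1 with dual replicate 4 (0.356). The deviations also followed GC content by library, so these values cannot decide whether the numbers pair the libraries. With the replicate number as a block, 17 of all genes and 0 of the module were called. Depth limits the low genes: Atp6v0d2 had 8 to 21 counts, and its interval alone passed 1.5-fold. Intervals cover the spread between these libraries only.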
